A study of Mus musculus with 12 samples.

Results

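The genes described here are 9 transcripts that are commonly read as a scale between epithelial and mesenchymal cell states: the transcription factors Snai1, Snai2, Zeb1, Zeb2 and Twist1, the cadherins Cdh1, Cdh2 and Cdh11, and the intermediate filament gene Vim. They were taken by name from count tables of 24147 genes, each of the 9 was found once, and all 9 passed the filter on low counts that left 14560 genes for testing. RNA came from the capsule of the mouse lens with the lens epithelial cells that stay on it when the fiber cell mass is taken out through the cornea, a model of cataract surgery. All mice were 2 months old. Tissue was taken right after the surgery (0 h) or 48 h later, from wild type (WT) C57BL/6 mice or from fibronectin conditional knockout (FNcKO) mice on a mixed C57BL/6, 129 and FVB/N background. Each of the 4 groups had 3 libraries, described as biological triplicates. Genotype and strain background coincide in this design and cannot be told apart. The labels do not name the Cre driver of the knockout. The study asked what fibronectin does in the epithelial response that leads to clouding of the capsule after cataract surgery.

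In an epithelial to mesenchymal transition (EMT), cells loosen their contacts, change their cytoskeleton and gain the ability to migrate and to make matrix. Snail proteins (Snai1, Snai2), ZEB proteins (Zeb1, Zeb2) and Twist1 are DNA-binding factors. Snail and ZEB proteins bind E-box sequences, among them in the promoter of Cdh1, and repress it. Cdh1 encodes E-cadherin, the adhesion protein of epithelial junctions, Cdh2 encodes N-cadherin, which the lens makes as well, and Cdh11 encodes a cadherin of mesenchymal cells. Vimentin, the product of Vim, is widely used as a mesenchymal marker, but lens epithelium contains it in the uninjured state.

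Library totals ran from 8368160 to 10862573 counts, and levels are given as CPM, the count of a gene divided by the library total and multiplied by 1e6, after scaling between libraries with edgeR's TMM factors. The targeted gene, Fn1, was at 15.5 to 23.1 CPM in the 3 WT 0 h libraries and 8.32 to 16.8 CPM in the 3 FNcKO 0 h libraries. At 48 h it was at 528 to 1515 CPM in WT and 146, 298 and 688 CPM in FNcKO, so the ranges overlapped at both times, and where the counted reads lie relative to the deleted part is not known. All 10 lens epithelium markers, Pax6 and Foxe3 among them, were detected in every group. The 16 fiber cell markers were present too: their summed level was 37973 to 69893 CPM in 5 of the 6 libraries at 0 h, 108559 CPM in FNcKO 0 h replicate 3, and 2238 to 33871 CPM at 48 h. Summed levels of 6 general leukocyte markers were 11.1 to 44.7 CPM at 0 h and 100 to 580 CPM at 48 h. In these bulk samples, fewer cells of a type and less RNA per cell cannot be told apart.

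Of the 9 genes, Snai1 and Zeb1 rose and Cdh1 fell between 0 h and 48 h in both genotypes, while Cdh11 and Vim rose in WT and did not pass in FNcKO, with no called difference between the genotypes. Snai2, Zeb2, Twist1 and Cdh2 did not pass in either genotype. With edgeR's quasi-likelihood test and a Benjamini-Hochberg (BH) adjusted p under 0.05 as the threshold, 4 members rose and 1 fell in WT, where 19.1% of all tested genes rose, 13.5% fell and 32.6% did either. In FNcKO 2 members rose and 1 fell, beside 14.9% of all tested genes that rose, 9.9% that fell and 24.8% that did either. The median log2 change over the 9 was 0.70 in WT and 0.40 in FNcKO, and over all tested genes it was 0.02 and 0.00. These shares rest on TMM scaling: among all genes, 2775 rose and 1970 fell in WT, and with library totals as the scale 3888 rose and 1211 fell. In FNcKO the split was 2169 and 1442 with TMM and 3408 and 727 with library totals.

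**Figure D1:**
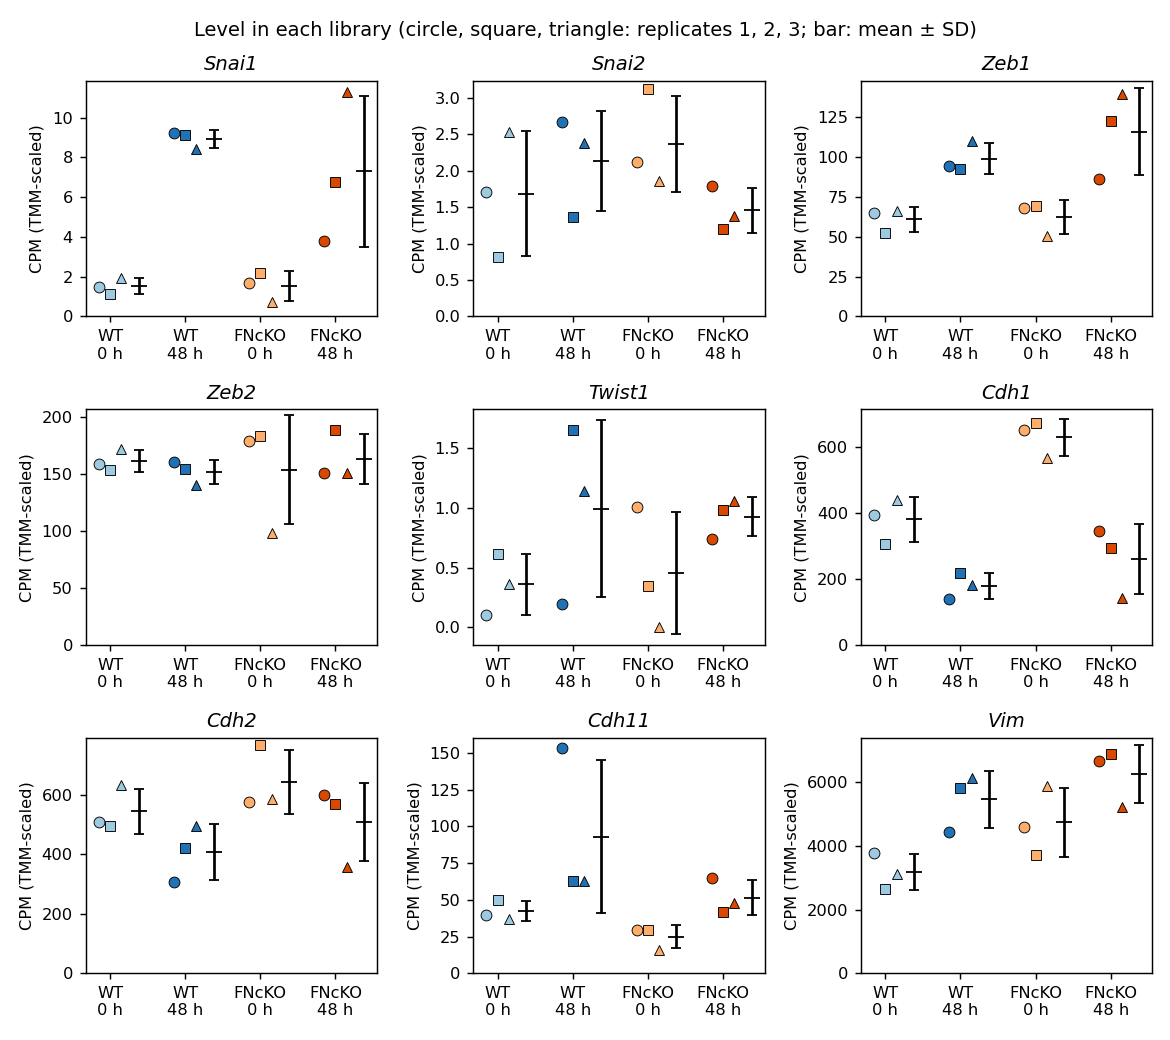
TMM-scaled CPM (linear axes) of the 9 genes in each of the 12 libraries, by genotype and time, with circles, squares and triangles for replicates 1, 2 and 3 and the bar for the group mean ± SD (n = 3). Snai1 lay at 0.717 to 2.19 CPM in the 6 libraries at 0 h and at 3.80 to 11.3 CPM in the 6 at 48 h, and Cdh1 in each genotype was lower in every library at 48 h than in any at 0 h.

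Snai1 was a low-abundance transcript that rose in every library. It lies on chromosome 2 from 167538227 to 167542811 (mm10, as the files give it). In WT it was at 1.505, 1.12 and 1.93 CPM at 0 h and at 9.23, 9.14 and 8.40 CPM at 48 h. In FNcKO it was at 1.68, 2.19 and 0.717 CPM at 0 h and at 3.80, 6.77 and 11.3 CPM at 48 h. The lowest library at 48 h was above the highest at 0 h in each genotype. Groups that did not overlap, in either direction, were found for 51.5% of all tested genes in WT and 37.5% in FNcKO. The log2 change was 2.55 (SE 0.47, edgeR adjusted p = 0.00131) in WT and 2.22 (SE 0.47, edgeR adjusted p = 0.00416) in FNcKO. The 3 WT libraries at 48 h lay close together (8.92 ± 0.453 CPM, SD, n = 3), whereas the FNcKO libraries at 48 h were spread over 7.30 ± 3.78 CPM (SD, n = 3). The FNcKO libraries at 48 h had the same order in Snai1 as in the summed leukocyte markers, which were at 100, 164 and 271 CPM in replicates 1, 2 and 3. The sums of lens epithelium (18718, 14112 and 4366 CPM) and fiber markers (33871, 15537 and 2238 CPM) in these libraries had the reverse order. In WT at 48 h the leukocyte sums were 580, 253 and 173 CPM, beside Snai1 at 9.23, 9.14 and 8.40 CPM. Whether other cells contributed to the Snai1 level was not tested.

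The promoter windows of the members that rose and have an entry in the RefSeq table (build GRCm38.p6) are shown because they bear on the E-box that these factors bind. Each window runs from 250 bases before to 50 bases after an annotated start. Of the 9 genes, 4 matched an entry (Snai1, Zeb2, Twist1 and Vim). The E-box letters searched were CAGGTG and its reverse complement CACCTG, which are the same site on opposite strands. Capitals mark a match. The Snai1 window is chr2:167537945-167538244 and the Vim window chr2:13574061-13574360, both on the plus strand.
Snai1: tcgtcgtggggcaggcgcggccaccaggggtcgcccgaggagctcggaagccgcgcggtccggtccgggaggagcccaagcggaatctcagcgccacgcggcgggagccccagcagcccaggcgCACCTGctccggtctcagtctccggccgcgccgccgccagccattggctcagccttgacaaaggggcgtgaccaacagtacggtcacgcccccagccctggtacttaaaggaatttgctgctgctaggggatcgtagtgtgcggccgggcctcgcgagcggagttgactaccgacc
Vim: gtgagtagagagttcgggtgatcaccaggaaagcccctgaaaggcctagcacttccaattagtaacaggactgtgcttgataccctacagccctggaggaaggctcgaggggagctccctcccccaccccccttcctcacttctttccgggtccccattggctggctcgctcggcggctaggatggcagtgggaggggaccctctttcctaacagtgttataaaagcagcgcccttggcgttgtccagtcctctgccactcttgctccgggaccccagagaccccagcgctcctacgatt
Snai1 held 1 match, which begins 126 bases before the start. The windows of Vim, Twist1 and Zeb2 (4 annotated starts) held none. Of 32851 RefSeq promoter windows of the same length, 20.2% held at least 1 match, so a match as in Snai1 is common.

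Zeb1, which encodes a zinc finger repressor of E-cadherin, started from a far higher level than Snai1 and rose by less. It was at 64.7, 52.1 and 66.0 CPM in WT at 0 h and at 94.5, 92.7 and 110 CPM at 48 h. In FNcKO it went from 67.8, 69.5 and 50.2 CPM to 86.2, 122 and 139 CPM. The groups at 0 h and 48 h did not overlap in either genotype. Zeb1 changed by a log2 of 0.70 (SE 0.19, edgeR adjusted p = 0.0147) in WT and 0.89 (SE 0.20, edgeR adjusted p = 0.00519) in FNcKO. The WT call was lost without WT 0 h replicate 2 (log2 0.57, adjusted p = 0.0779) and without WT 48 h replicate 3 (log2 0.62, adjusted p = 0.0548).

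Zeb2, the paralog of Zeb1 that also represses E-cadherin, was at 140 to 189 CPM in all libraries but 1 and did not pass the test in either genotype. Its WT levels were 159, 154 and 172 CPM at 0 h and 161, 154 and 140 CPM at 48 h. In FNcKO they were 179, 184 and 98.4 CPM at 0 h and 151, 189 and 151 CPM at 48 h. The low value of 98.4 CPM was in FNcKO 0 h replicate 3, the library with the highest fiber marker sum. The log2 change was −0.09 (SE 0.21, edgeR adjusted p = 0.775) in WT and 0.09 (SE 0.21, edgeR adjusted p = 0.801) in FNcKO. Without FNcKO 0 h replicate 3 the FNcKO value was −0.19. Both ZEB genes overlap annotated transcripts on the opposite strand, Gm10125 at Zeb1 and Zeb2os at Zeb2. The kit was stranded per the labels' protocols, but no source used here states whether counting used the strand, so reads of these partners may be included.

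Snai2 and Twist1 were near the lower end of what these libraries can measure. Snai2, which encodes Slug, was at 1.71, 0.816 and 2.53 CPM in WT at 0 h and at 2.67, 1.36 and 2.39 CPM at 48 h, so the groups overlapped. In FNcKO it was at 2.12, 3.12 and 1.87 CPM at 0 h and at 1.80, 1.20 and 1.38 CPM at 48 h, with all 3 libraries at 48 h below the 3 at 0 h. For Snai2 the estimate was 0.35 on the log2 scale (SE 0.52, edgeR adjusted p = 0.629) in WT and −0.70 (SE 0.52, edgeR adjusted p = 0.360) in FNcKO. Without WT 0 h replicate 2 the WT value was −0.02.

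Twist1, a basic helix-loop-helix factor, had 1, 6 and 3 counts in the WT libraries at 0 h and 2, 17 and 11 at 48 h. In FNcKO it had 9, 3 and 0 counts at 0 h and 7, 9 and 10 at 48 h, and a count of 0 allows up to 3 counts at the same depth. Its log2 change was 1.44 (SE 0.97, edgeR adjusted p = 0.271) in WT and 0.96 (SE 0.96, edgeR adjusted p = 0.507) in FNcKO. Neither a change nor its absence is shown for Twist1 by these counts.

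Cdh1, the E-cadherin gene, fell in both genotypes. In WT it went from 395, 306 and 440 CPM at 0 h to 138, 217 and 181 CPM at 48 h. In FNcKO it went from 652, 672 and 565 CPM to 346, 294 and 143 CPM. The groups did not overlap in either genotype. The log2 change was −1.09 (SE 0.29, edgeR adjusted p = 0.0110) in WT and −1.27 (SE 0.29, edgeR adjusted p = 0.00602) in FNcKO. Without WT 48 h replicate 1 the WT change was −0.93 with an adjusted p of 0.0518. The lowest Cdh1 levels at 48 h were in WT replicate 1 (138 CPM) and FNcKO replicate 3 (143 CPM). Within their groups these libraries also had the lowest sums of lens epithelium (5112 and 4366 CPM) and fiber markers (3388 and 2238 CPM). Their leukocyte marker sums (580 and 271 CPM) were the highest of their groups. Summed lens epithelium markers also fell, from 29326 ± 6963 to 9259 ± 3593 CPM in WT and from 39021 ± 14992 to 12399 ± 7328 CPM in FNcKO (SD, n = 3 each). Not every marker fell: of the 10, 5 were called lower and 1 higher in WT (median log2 change −1.10). In FNcKO 7 were called lower and 1 higher (median −1.22). The part of cell composition in the Cdh1 change was not tested.

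Cdh2, the N-cadherin gene, did not pass the test in either genotype. In WT it was at 508, 494 and 632 CPM at 0 h and at 307, 420 and 496 CPM at 48 h, so the highest library at 48 h was just above the lowest at 0 h. In FNcKO it was at 575, 768 and 587 CPM at 0 h and at 600, 569 and 357 CPM at 48 h. For Cdh2 the estimate was −0.42 on the log2 scale (SE 0.24, edgeR adjusted p = 0.202) in WT and −0.34 (SE 0.24, edgeR adjusted p = 0.339) in FNcKO. In both genotypes the estimate was below 0. Cdh2 overlaps an annotated antisense transcript, Gm15485.

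Cdh11, the mesenchymal cadherin, rose in WT. In WT it was at 39.9, 50.0 and 36.9 CPM at 0 h and at 153, 63.0 and 62.9 CPM at 48 h. In FNcKO it was at 29.4, 29.7 and 15.8 CPM at 0 h and at 65.0, 41.6 and 47.9 CPM at 48 h. Every library at 48 h was above every library at 0 h in each genotype. Cdh11 changed by a log2 of 1.14 (SE 0.35, edgeR adjusted p = 0.0265) in WT and 1.04 (SE 0.36, edgeR adjusted p = 0.0500159) in FNcKO, the latter just over the threshold. The WT value depended on WT 48 h replicate 1, the library with 153 CPM of Cdh11. Of the 3 WT libraries at 48 h it had the highest sums of leukocyte (580 CPM), macrophage (685 CPM) and neutrophil (347 CPM) markers. The same held for fibroblast and keratocyte (2027 CPM) and pigment (461 CPM) markers. It had the lowest sums of lens epithelium (5112 CPM), fiber (3388 CPM), endothelial (106 CPM), pericyte (84.3 CPM) and photoreceptor (1183 CPM) markers. The part of cell composition in the Cdh11 level was not tested. Without that library the WT change was 0.58 with an edgeR adjusted p of 0.133. The WT call was also lost without WT 0 h replicate 1 (adjusted p = 0.0760) and without WT 0 h replicate 3 (adjusted p = 0.0749).

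Vim was the most abundant member by far. In WT it was at 3773, 2644 and 3107 CPM at 0 h and at 4423, 5808 and 6137 CPM at 48 h. In FNcKO it was at 4605, 3725 and 5875 CPM at 0 h and at 6657, 6889 and 5222 CPM at 48 h. The WT groups did not overlap, and the FNcKO groups did. The log2 change was 0.78 (SE 0.27, edgeR adjusted p = 0.0412) in WT and 0.40 (SE 0.27, edgeR adjusted p = 0.304) in FNcKO. The WT call is the least stable of the 5: it was lost in 10 of 20 alternative analyses, over which the adjusted p ran from 0.00328 to 0.161. Among them were the fits without WT 0 h replicate 2 (log2 0.64), WT 0 h replicate 3 (0.77), WT 48 h replicate 2 (0.74) or WT 48 h replicate 3 (0.69), and those without replicate 1 of FNcKO at 0 h or without replicate 1 or 2 of FNcKO at 48 h, in which the WT log2 change was 0.78.

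**Figure D2:**
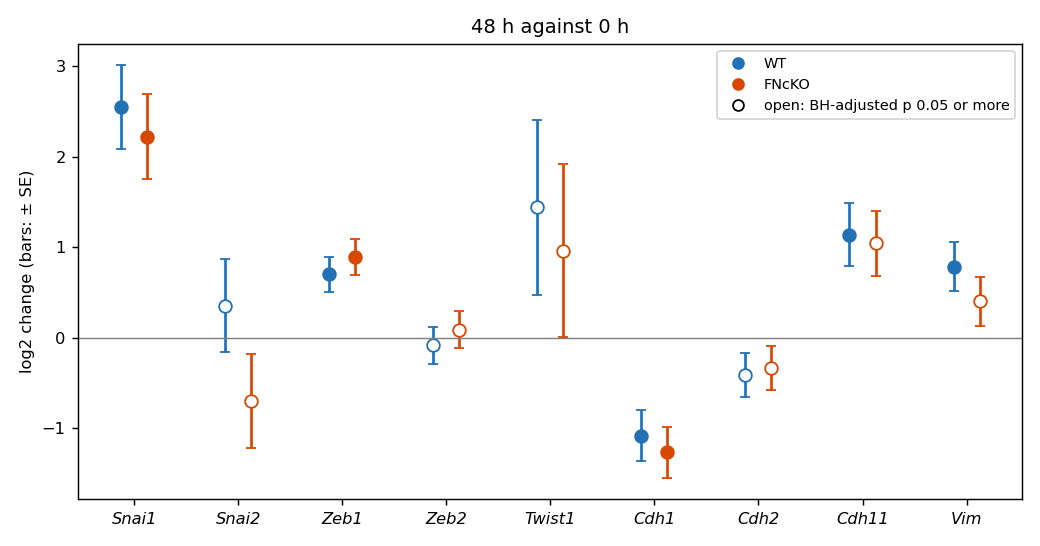
Log2 change from 0 h to 48 h of the 9 genes in WT (blue) and FNcKO (orange), with bars of ± 1 approximate SE and filled points for a BH-adjusted p under 0.05. Snai1 stands highest (2.55 and 2.22), Cdh1 lowest (−1.09 and −1.27), and Snai2 has estimates on opposite sides of 0 (0.35 and −0.70) with neither past the threshold.

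Per kilobase of the transcript length given in the files, which allows levels of different genes to be set side by side, the order of group means was partly shared by the 4 groups. Vim led in every group, at 1731 ± 309 CPM per kb in WT at 0 h and 3411 ± 492 in FNcKO at 48 h (SD, n = 3). Cdh2 (117 ± 16.4) and Cdh1 (86.2 ± 15.4) followed in WT at 0 h, without overlap between their libraries. In FNcKO at 0 h the order of means was Cdh1 (143 ± 12.8), then Cdh2 (138 ± 23.3), with overlapping libraries. Libraries of this pair overlapped in FNcKO at 48 h as well. Zeb2, Zeb1 and Cdh11 followed, in that order of means at 0 h. At 48 h the order was Cdh11, Zeb1, Zeb2 in WT and Zeb1, Zeb2, Cdh11 in FNcKO. Their group means ran from 5.92 to 22.1 CPM per kb over both times. Zeb1 and Zeb2 overlapped in WT at 48 h and in FNcKO at both times. Zeb1 and Cdh11 overlapped in WT at both times and in FNcKO at 48 h. Zeb2 and Cdh11 overlapped in WT at 48 h. In WT at 48 h Cdh11 also overlapped Cdh1, and in replicate 1 of that group Cdh11 was the higher of the pair. Snai1, Snai2 and Twist1 were at 5.63 CPM per kb or less in group means. Snai1 and Snai2 overlapped at 0 h in both genotypes. Snai2 and Twist1 did so at 48 h in both genotypes, and Snai1 and Twist1 in FNcKO at 0 h. At 48 h Snai1 was above Snai2 in every library, with means of 5.63 against 1.06 CPM per kb in WT and 4.60 against 0.725 in FNcKO.

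Set against all 23 cadherin (Cdh) genes in the files, Cdh2 held between 36.7% and 50.3% in every library, and the Cdh1 share was lower at 48 h. Shares were taken of the summed CPM per kb. Cdh2 held 44.2% ± 0.342 in WT at 0 h and 44.1% ± 6.92 at 48 h, and 41.6% ± 3.27 and 47.6% ± 0.675 in FNcKO (SD, n = 3 each). Cdh1 went from 32.5% ± 3.41 to 20.5% ± 3.80 in WT and from 43.1% ± 2.45 to 24.9% ± 4.43 in FNcKO. Cdh11 went from 3.87% ± 1.07 to 11.6% ± 7.44 in WT, with 20.1% in replicate 1 at 48 h, and from 1.76% ± 0.439 to 5.50% ± 1.56 in FNcKO.

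The ratio of Cdh2 to Cdh1 per kb was 1.22, 1.53 and 1.36 in WT at 0 h and 2.11, 1.83 and 2.60 at 48 h. In FNcKO it was 0.838, 1.09 and 0.986 at 0 h and 1.65, 1.84 and 2.38 at 48 h. All 48 h libraries were above all 0 h libraries of either genotype. Of the 2 genes, Cdh1 fell past the threshold, and the Cdh2 estimate was below 0 as well. The summed cadherin level was 265 ± 37.4 and 197 ± 15.9 CPM per kb in WT at 0 h and 48 h, and 332 ± 42.1 and 230 ± 59.9 in FNcKO. These proportions are descriptions and were given no test.

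**Figure D3:**
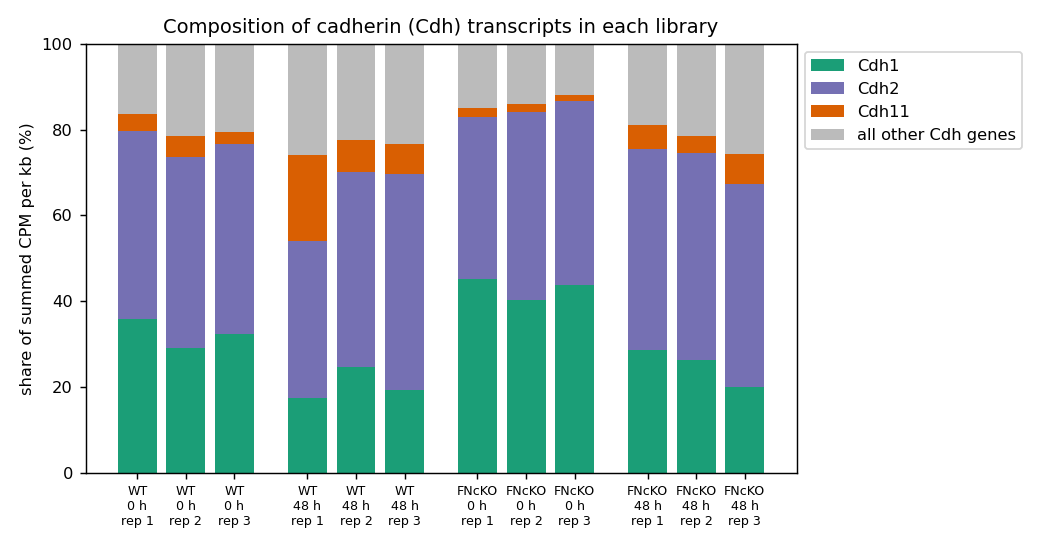
Share of Cdh1, Cdh2, Cdh11 and all other Cdh genes in the summed CPM per kb of 23 Cdh genes (percent, axis from 0 to 100), 1 bar per library. The Cdh1 part is 29.1% to 45.2% at 0 h and 17.4% to 28.5% at 48 h, and the widest Cdh11 part, 20.1%, is in WT 48 h replicate 1.

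No member differed between the genotypes past the threshold. At 48 h 0 of 9 were called, beside 0.24% of all tested genes, and at 0 h 0 of 9, beside 0.144%. Averaged over both times 0 of 9 were called, beside 0.481%. With edgeR and no adjustment, Cdh11 had a p under 0.05 at 48 h (1 of 9, beside 5.47% of all genes), Cdh1 at 0 h (1 of 9, beside 11%), and Cdh1 and Cdh11 averaged over both times (2 of 9, beside 10.5%). DESeq2 called 0 of 9 in each. The change from 0 h to 48 h did not differ between genotypes past the threshold for any member or any gene (0% of tested genes by edgeR). For that difference 0 of 9 members had an unadjusted p under 0.05, beside 735 of all tested genes (5.05%), and DESeq2 called 0 of 9 members and 28 genes. The estimates for the members ran from −1.05 (Snai2, SE 0.73) to 0.19 (Zeb1, SE 0.27) on the log2 scale. For Snai1 the estimate was −0.33 (SE 0.65) and for Vim −0.38 (SE 0.38), so that neither an equal nor an unequal response is shown.

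Cdh1 and Cdh11, the members with an unadjusted p under 0.05 between genotypes, had estimates in opposite directions. Cdh1 was higher in each of the 3 FNcKO libraries at 0 h (565 to 672 CPM) than in any WT library at 0 h (306 to 440 CPM), a separation seen in 16.6% of all tested genes at that time. Its FNcKO against WT log2 difference was 0.73 (SE 0.28, edgeR adjusted p = 0.403) at 0 h and 0.54 (SE 0.28, edgeR adjusted p = 1.0) at 48 h. Averaged over both times it was 0.64 (SE 0.20, edgeR adjusted p = 0.248). That average passed in 1 alternative, without FNcKO 48 h replicate 3 (0.78, adjusted p = 0.0410).

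Cdh11 was lower in FNcKO at 0 h, with 15.8 to 29.7 CPM against 36.9 to 50.0 CPM in WT. Its difference was −0.76 (SE 0.35, edgeR adjusted p = 0.461) at 0 h and −0.85 (SE 0.35, edgeR adjusted p = 0.841) at 48 h. At 48 h the groups overlapped, as FNcKO replicate 1 (65.0 CPM) was above WT replicates 2 and 3, and without WT 48 h replicate 1 the difference was −0.29. The average was −0.81 (SE 0.25, edgeR adjusted p = 0.248). At 0 h without FNcKO 0 h replicate 3, the library rich in fiber markers, the difference was −0.50 for Cdh11 and 0.81 for Cdh1. Vim had a difference of 0.58 (SE 0.27, edgeR adjusted p = 0.456) at 0 h, with overlapping libraries.

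**Figure D4:**
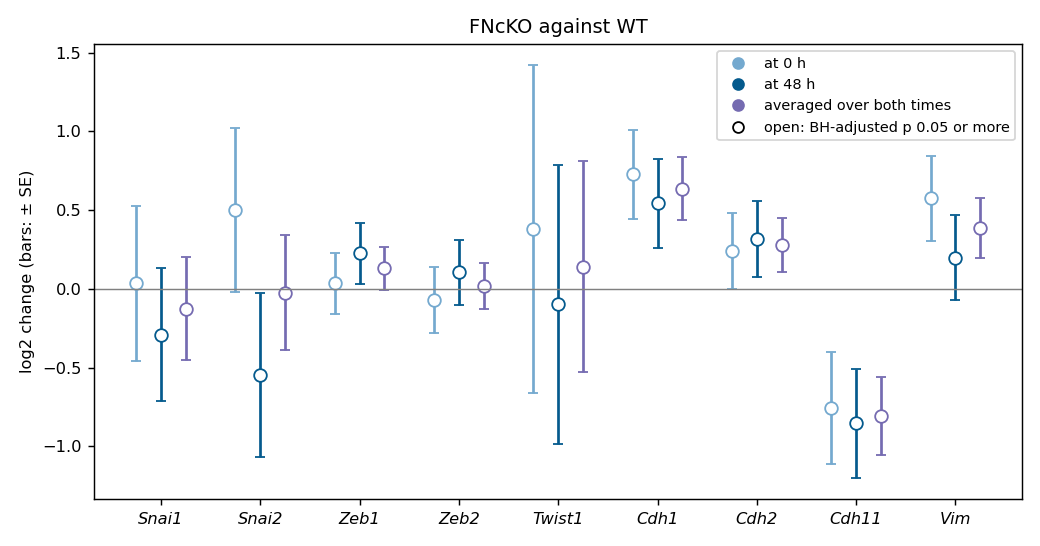
Log2 difference of FNcKO against WT for the 9 genes at 0 h, at 48 h and averaged over both times, with bars of ± 1 approximate SE. All points are open (BH-adjusted p of 0.05 or more), with Cdh1 above 0 (0.73, 0.54 and 0.64) and Cdh11 below 0 (−0.76, −0.85 and −0.81).

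Among other transcription factors linked to EMT, 3 passed upward in both genotypes (Sox9, Sox4 and Foxc1). Of 14 listed, 8 were tested. Time-change counts in this and the following lists stand beside 32.6% of all tested genes called in WT and 24.8% in FNcKO. In WT 3 rose and none fell, with a list median of 0.74 beside 0.02 for all genes, and in FNcKO 4 rose and 1 fell, with a median of 0.50 beside 0.00. Sox9, an SRY-box factor of neural crest and cartilage, rose from 33.4 ± 7.42 to 84.2 ± 6.28 CPM in WT (log2 1.34) and from 45.8 ± 8.44 to 102 ± 24.4 CPM in FNcKO (log2 1.15). Sox4 rose by 0.96 and 0.85 on the log2 scale, and the forkhead gene Foxc1 by 1.32 and 1.38. Prrx1 rose and Tcf4 (log2 −0.50), an E protein that pairs with Twist1, fell in FNcKO.

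A list of 16 genes held corepressors, genes for turnover of Snail and ZEB proteins, and the helix-loop-helix inhibitor genes Id1, Id2, Id3 and Id4. All 16 were tested. In WT 2 rose and 2 fell (list median 0.01), and in FNcKO 2 rose and none fell (list median 0.07). In both genotypes this is a smaller share than among all tested genes (32.6% in WT and 24.8% in FNcKO). Ctbp1, a corepressor that ZEB proteins bind, rose in both genotypes (log2 0.68 in WT and 0.57 in FNcKO). Hdac1 rose in WT (0.63), and Fbxw7, a ubiquitin ligase subunit, rose in FNcKO (0.73). Id2 (log2 −1.35) and Id3 (log2 −0.94), which encode helix-loop-helix inhibitors, fell in WT.

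The partners of cadherins inside the cell changed unevenly. Of the 10 catenins and related genes, 2 rose and 4 fell in WT (median −0.42), and 1 rose and 3 fell in FNcKO (median −0.30). Vcl, for vinculin, which links junctions and focal adhesions to actin, rose from 244 ± 27.4 to 628 ± 155 CPM in WT and from 227 ± 49.0 to 587 ± 142 CPM in FNcKO (log2 1.37 in each). Ctnna1, for alpha-E-catenin, rose in WT (log2 0.42). Arvcf, a catenin of the p120 family, fell from 509 ± 72.5 to 112 ± 54.8 CPM in WT and from 498 ± 52.7 to 140 ± 99.4 CPM in FNcKO. Ctnnd2, of the same family, and Ctnna2 fell in both genotypes, and Pkp4 in WT. Ctnnb1, for beta-catenin, named after its values were seen, was at 774 ± 82.1 and 729 ± 51.1 CPM in WT at 0 h and 48 h (log2 −0.09, edgeR adjusted p = 0.721).

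Among 19 further cadherin genes, 13 were tested. In WT 3 rose and 5 fell (median −0.64), and in FNcKO 5 rose and 2 fell (median 0.81). Cdh3, for P-cadherin, an epithelial cadherin, fell with Cdh1, from 33.9 ± 9.70 to 8.30 ± 3.87 CPM in WT and from 36.7 ± 8.37 to 6.39 ± 4.32 CPM in FNcKO. Cdh5, the cadherin of blood vessel endothelium, rose from 0.628 ± 0.428 to 12.3 ± 7.39 CPM in WT and from 0.590 ± 0.319 to 4.44 ± 2.66 CPM in FNcKO. The summed level of 10 endothelial markers, Cdh5 itself among them, was 89.6 ± 35.4 and 134 ± 28.0 CPM in WT at 0 h and 48 h. In FNcKO the sum was 47.8 ± 17.3 and 103 ± 48.6 CPM (SD, n = 3 each). The part of endothelial cells in the Cdh5 rise was not tested. Cdh13 rose and Cdh9 fell in both genotypes. Cdh15, a cadherin of muscle precursors, had no count in any WT library at 0 h and was at 4.51 ± 3.12 CPM at 48 h.

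Epithelial junction and keratin genes were mixed. Of 24 listed, 22 were tested, of which 2 rose and 7 fell in WT (median −0.29), and 1 rose and 3 fell in FNcKO (median −0.24). Krt19, an epithelial keratin, fell from 53.5 ± 6.94 to 22.0 ± 7.09 CPM in WT and from 42.3 ± 9.92 to 19.3 ± 9.27 CPM in FNcKO. F11r, a tight junction adhesion molecule, fell by 0.57 in WT and by 0.66 in FNcKO on the log2 scale. Of 12 regulators of the epithelial state, 6 were tested and 2 rose in WT and 1 in FNcKO, among them Klf5, from 0.255 ± 0.136 to 4.52 ± 1.67 CPM in WT and from 0.296 ± 0.165 to 4.81 ± 2.07 CPM in FNcKO.

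Vim was accompanied by other intermediate filament genes. Of 12 listed, 7 rose and 1 fell in WT (median 1.29), and 6 rose and 2 fell in FNcKO (median 1.28). Lmna, for the nuclear lamins A and C, rose from 37.9 ± 5.42 to 226 ± 45.3 CPM in WT (log2 2.57) and from 44.6 ± 5.23 to 247 ± 66.1 CPM in FNcKO (log2 2.47). Lmnb1 (log2 2.01 and 2.06) and Plec, for the cytolinker plectin (log2 1.04 and 1.27), rose as well, and so did Gfap and Nes in both genotypes. Bfsp1, a filament protein of lens fiber cells, fell from 503 ± 254 to 71.7 ± 71.9 CPM in WT and from 802 ± 207 to 82.2 ± 56.5 CPM in FNcKO, beside the lower fiber marker sum at 48 h.

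Of 20 genes of the mesenchymal and matrix-producing state, 14 rose and 1 fell in each genotype (median 2.47 in WT and 1.93 in FNcKO). Lox, a collagen crosslinking enzyme, rose from 2.40 ± 0.316 to 107 ± 20.2 CPM in WT and from 2.06 ± 0.760 to 23.4 ± 9.49 CPM in FNcKO. Tagln, a smooth muscle type actin-binding protein, rose from 10.1 ± 3.85 to 168 ± 11.9 CPM in WT and from 8.81 ± 1.19 to 70.0 ± 9.62 CPM in FNcKO. This list was the only pathway list with members past the threshold between genotypes at 48 h. Of its 20 genes 4 were lower in FNcKO, beside 0.24% of all tested genes called in either direction. They were Lox (log2 −2.19, edgeR adjusted p = 0.00375), Col1a1 (−2.70, edgeR adjusted p = 0.0265), Tagln (−1.27, edgeR adjusted p = 0.0296) and Postn. The count of all genes called in this comparison, 35, ran from 10 to 46 with single libraries left out. The stability of these 4 calls is not given here. Some markers of pigment cells and of fibroblasts and keratocytes were lower in FNcKO at 48 h as well. Of 9 pigment cell markers, 3 were called lower, and their summed level was 180 to 461 CPM in WT and 18.9 to 70.7 CPM in FNcKO. Of 7 tested fibroblast and keratocyte markers, 1 was called lower, Col1a1, which both lists hold. The summed level of the 10 listed, of which Kera and Dpt were at 0 in WT at 48 h, was 1443 to 2027 CPM in WT and 748 to 1392 CPM in FNcKO. Their part in the lower mesenchymal genes was not tested. None of the 9 EMT factors, cadherins and vimentin was called in that comparison.

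The genes whose pattern over the 12 libraries was most like each member were found by Pearson's r of log2 CPM. These values are descriptions: the libraries form 2 time groups, and a gene that changed with time correlates with others that did. Snai1 was most like B3gnt2 (r = 0.979), Coro1a (0.978) and Gcnt2 (0.969). Coro1a encodes an actin-binding protein of leukocytes, and was at 1.23 CPM in WT at 0 h and 20.4 CPM at 48 h. Zeb1 was most like Smad3 (0.976), a transducer of TGF-beta signals, then 2610034B18Rik (0.969) and Swap70 (0.967). Zeb2 was most like Il6st (0.957), the shared receptor chain of IL-6 type cytokines, then Cyb5d1 (0.926) and Eya4 (0.911).

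Cdh1 was most like Aldh1a1 (0.978), a retinaldehyde dehydrogenase, Pam (0.975) and Timp2 (0.971). Cdh2 was most like Itga6 (0.955), a laminin-binding integrin chain, Itfg1 (0.945) and Col4a3 (0.930), a collagen IV chain. Cdh11 was most like Thbd (0.962), Cobl (0.960) and Mab21l2 (0.958), and Vim like Capns1 (0.958), Atxn10 (0.949) and S100a6 (0.943). For the low-abundance Snai2 and Twist1 the highest values were smaller: 0.823 for Smim15, 0.823 for Klhl9 and 0.802 for Mrpl1 with Snai2, and 0.864 for Nov, 0.852 for Gm20748 and 0.848 for Abcc12 with Twist1.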

How the data were processed

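RNA from 12 capsule samples was sequenced as stranded TruSeq libraries, per the labels' protocols. The submitters' processing notes name Trim Galore 0.4.4, TopHat2 2.1.0, HTSeq 0.6.1p1 and edgeR 3.16.5 and the build mm10. The authors deposited a raw count per gene for each library, and an RPKM that equals count over length and library total; the RPKM was used only for that check. In a deposited combined table, 8 of 9 count columns equal the file they are named for, and the WT 0 h replicate 1 column holds FNcKO 0 h replicate 1, so the single files were used. Testing used edgeR 4.0.16 under R 4.3.3 on the raw counts (filterByExpr, TMM, robust quasi-likelihood F test, 4 group means, BH adjustment over 14560 genes, threshold 0.05). SE is the log2 change over the square root of F, an approximation. DESeq2 1.42.0, other scalings and filters, a replicate block and left-out libraries were alternatives. The fit was tested on simulated data. Each p-value sets a difference between group means against the spread between libraries within groups, estimated from all 12 libraries together. Levels between genes were divided by the length in the files. The named genes are the 9 members; of each list those that passed, with values for up to 3 of smallest p in each direction; and the 3 genes of highest r with each member (prior count 2). The members and lists were chosen with earlier results of these data known.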

Additional observations from a re-analysis of the deposited data

How the results depend on the processing

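Over 20 alternatives, the Snai1 rise in both genotypes and the Zeb1 rise and Cdh1 fall in FNcKO kept their direction and passed each time. In WT the members called ran from 3 to 5 with each library left out in turn, and were 3 without both 0 h replicate 1 libraries. In FNcKO 5 were called with library totals as the scale, adding Cdh11 (log2 1.29) and Vim (0.70). Cdh11 in FNcKO passed in 7 of 20 alternatives (adjusted p 0.00745 to 0.165). Library totals moved the median of all genes to 0.23 in WT and 0.29 in FNcKO for the time change, and to −0.15 for genotype at 0 h; under it Zeb2 in WT was at 0.13. With single libraries left out, Snai2 in WT ran from −0.018 to 0.75 and Zeb2 in FNcKO from −0.19 to 0.24. Averaged over both times, 0 to 1 members were called.

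Counts of all genes moved more. With single libraries left out they ran from 2232 to 4095 for time in FNcKO, 10 to 46 for genotype at 48 h (35 as reported), 2 to 28 at 0 h (21), 34 to 81 averaged (70) and 0 to 1 for the difference of responses. DESeq2 called 119, 129, 284 and 28 in the last 4 comparisons named (48 h, 0 h, average, difference). Without both 0 h replicate 1 libraries the counts were 2299 for time in FNcKO, then 14, 2 and 17 for genotype at 48 h, 0 h and averaged; with the combined table's column they were 9, 0 and 0. Fitting only the 48 h groups gave 7. Library totals gave 10 at 0 h (3 higher, 7 lower, against 11 and 10) and at 48 h 1 higher and 27 lower (against 6 and 29). The cause of these shifts was not tested.

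Same-numbered replicates had deviations correlated between −0.474 and 0.291, and not every library correlated best with its own number, so the numbers were not taken as pairs. With the replicate block 4 members were called in each genotype (Vim in WT at an adjusted p of 0.0774, Cdh11 in FNcKO at 0.0235) and 1 gene for the difference of responses. Of 27 other genotype values of members, none passed in any of 524 alternative fits. Twist1, Snai2 and Snai1 had the fewest counts.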
